A study of Mus musculus with 6 samples.

Results

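The 36 genes described here encode aminoacyl-tRNA synthetases, and they were taken by exact gene symbol from a written list of these enzymes. All 36 listed genes were found among the 55353 genes in the files. They comprised 20 genes of the cytosolic enzymes and 16 genes of the mitochondrial enzymes, whose names end in 2. Tarsl2, which encodes an additional cytosolic threonyl-tRNA synthetase, was counted as cytosolic, as were Gars and Kars, which supply both compartments. The list does not hold every synthetase gene, and the others were not analysed here.

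Aminoacyl-tRNA synthetases join each amino acid to its matching tRNA with energy from ATP, and so supply the ribosome with charged tRNAs. Most amino acids have separate nuclear genes for a cytosolic enzyme and for an enzyme imported into mitochondria, where it serves the small set of proteins encoded by the mitochondrial genome. Several cytosolic enzymes sit together in a multisynthetase complex held by scaffold proteins, and several of the cytosolic genes are known targets of ATF4, the transcription factor of the integrated stress response.

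Total RNA from whole testes of mice at postnatal day 14 was sequenced after removal of ribosomal RNA, in 3 control libraries and 3 libraries of Rnu11 cKO mutants. The mutants carry a conditional knockout of Rnu11, which encodes U11 snRNA, the RNA of the minor spliceosome that recognises the 5′ splice site of a small class of introns. No source used here gives the Cre driver, the cells in which the gene was deleted or the alleles carried by the controls. The series text speaks of 3 animals per group, so each library was taken as 1 animal.

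Values are TPM, transcripts scaled to gene length and to a fixed total per library, so the read depth behind each value is unknown. Rnu11 itself measured 614, 576 and 550 TPM in the controls and 196, 393 and 203 TPM in the mutants. Every mutant lay below every control, and mutant 2 kept the most Rnu11 RNA of the 3 mutants (log2 difference −1.21, SE 0.26, limma adjusted p = 0.29). Markers of germ cells, Sertoli cells, Leydig cells, macrophages, myoid cells and endothelial cells were above 0 in every library. Control 2 stood apart from the other controls in markers of pachytene spermatocytes (61.0 TPM summed, against 108 and 102) and of Leydig cells (283.6 TPM, against 160.4 and 180.2). In whole tissue, fewer cells of a type and less RNA per cell cannot be told apart.

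No synthetase gene passed the test of mutants against controls over all genes. The test was limma on log2(TPM + 1), two-sided, for the 17959 genes whose mean over the 6 libraries reached 1 TPM, with Benjamini-Hochberg adjustment over all of them. All 36 synthetase genes were tested and 0 had an adjusted p under 0.05, against 5 genes, or 0.0278%, of all genes tested. Their adjusted p-values ran from 0.294 to 0.926. At an unadjusted p under 0.05 there were 4 synthetase genes (11.1%), against 16.1% of all genes. These were Wars2, Tarsl2 and Sars, higher in the mutants (12.1% of all genes), and Mars2, lower (3.98% of all genes). Without control 1, control 3 or mutant 2 the number was 1 (2.78%), which was Wars2 each time. Without mutant 1 it was 2 (5.56%), Wars2 and Mars2. The share of all genes was lower in these fits too, at 8.7%, 7.5%, 7.3% and 9.0%, in that order.

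The 36 log2 differences, mutant minus control, lay between −0.35 for Mars2 and 0.36 for Wars2, and their median of 0.09 equalled the median of all genes tested to that precision. A difference above 0 was seen for 28 synthetase genes and one below 0 for 8, where 66.4% of all genes were above 0. Without mutant 2 the numbers were 22 and 14. The split also depended on how libraries were scaled. With median-ratio scaling the median of all genes moved to −0.00 and the split of the synthetases to 15 above and 21 below, and with TPM rescaled to nuclear protein-coding genes it moved to 14 above and 22 below. With either scaling 5 genes (13.9%) had an unadjusted p under 0.05: Wars2, higher, and Mars2, Vars, Dars and Gars, lower. Over all genes the share was 16.7% with median-ratio and 16.8% with protein-coding scaling. The directions given from here on are on the deposited TPM unless stated.

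The standard errors lay between 0.08 and 0.20, and the 95% interval held 0 for 32 of the 36 genes. For 31 genes the whole interval lay within 0.5 of 0 on the log2 scale, and for all 36 it lay within 1. The outermost bounds were −0.66, for Mars2, and 0.63, for Rars2. The mutant mean was within 1.1-fold of the control mean for 20 genes, and the ratio of means ran from 0.733 for Mars2 to 1.43 for Wars2. Adding 1 before taking logs understates the change of genes as low as Mars2 and Wars2.

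**Figure D1:**
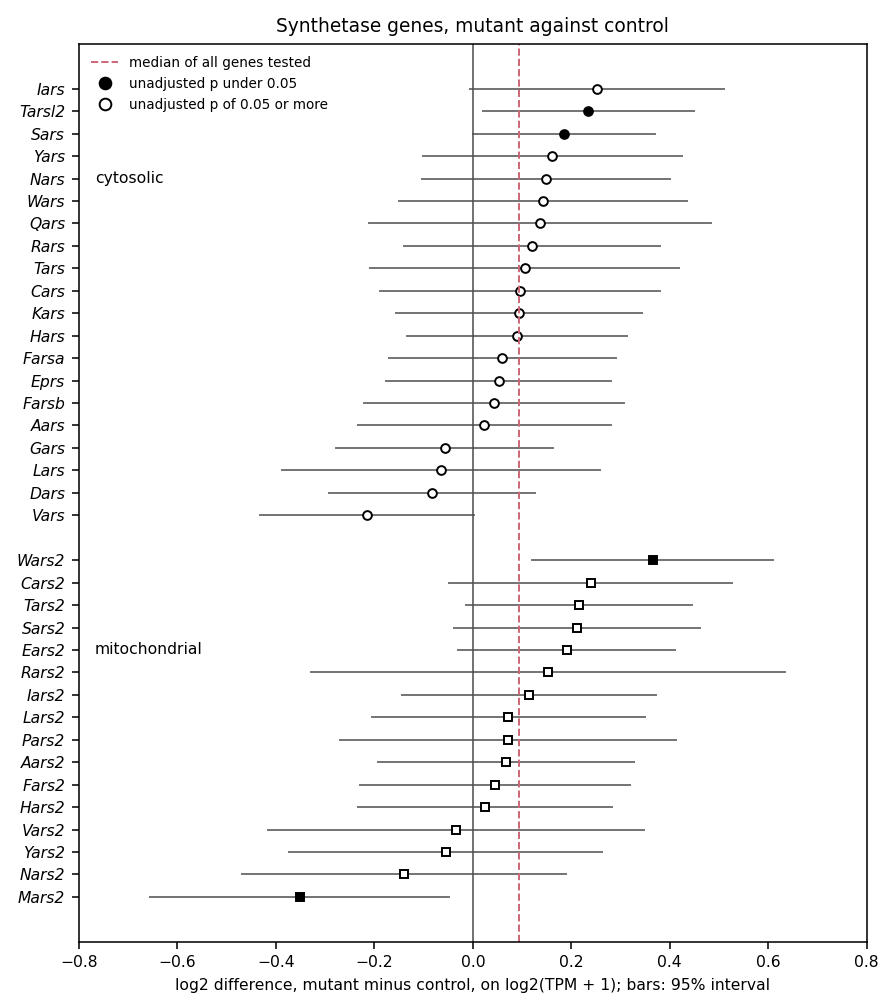
Log2 difference (mutant minus control, on log2(TPM + 1)) of the 20 cytosolic and 16 mitochondrial synthetase genes with 95% intervals, with filled symbols for an unadjusted p under 0.05 and a dashed line at the median of all genes tested. Most symbols sit near the dashed line at 0.09, Wars2 lies farthest right at 0.36 and Mars2 farthest left at −0.35.

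The groups did not overlap for 8 synthetase genes (22.2%), against 20.3% of all genes tested. Mutants lay above controls for 6 of them (14.5% of all genes) and below for Vars and Mars2 (5.77% of all genes). Within the mutants, mutant 2 was the highest library for 23 of the 36 genes, and for 52.9% of all genes tested. Mutant 3 was the lowest mutant for 23 of the 36, and the share over all genes was not computed for it. Its median-ratio scaling factor was the smallest of the mutants (0.96, against 1.064 and 1.109).

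Cytosolic enzymes were the more abundant set. The control mean of the 20 cytosolic genes had a median of 24.3 TPM and ran from 5.25 TPM for Tarsl2 to 49.0 TPM for Kars. The 16 mitochondrial genes had a median of 8.05 TPM and ran from 2.11 TPM for Wars2 to 24.1 TPM for Tars2. Summed over genes, the cytosolic enzymes gave 487.5, 537.4 and 513.8 TPM in the controls and 525.5, 581.3 and 505.4 TPM in the mutants. The mitochondrial enzymes gave 163, 170.7 and 171.7 TPM in the controls and 183.2, 193.1 and 166.6 TPM in the mutants. Both sums were highest in mutant 2, mutant 3 lay within the range of the controls for both, and the groups overlapped. These sums are on the deposited TPM and depend on how libraries are scaled. Mutant 2 had the largest median-ratio scaling factor of all libraries (1.109, against 0.938 to 1.064 in the others). Its share of TPM in nuclear protein-coding genes was also the largest (31.87%, against 26.61% to 30.25%). Mutant 2 also had the highest Rnu11 of the mutants and the highest summed Sertoli (2935 TPM) and Leydig (449.1 TPM) markers of all libraries. The part of each of these in the sums was not tested. The ratio of the sums was 3.04 ± 0.09 (SD, n = 3) in the controls and 2.97 ± 0.09 (SD, n = 3) in the mutants, and the groups overlapped.

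The order of levels at the top of the list was not separated by the data. Kars, lysyl-tRNA synthetase, measured 49.0 ± 4.67 TPM (SD, n = 3 controls), Qars, glutaminyl-tRNA synthetase, 43.3 ± 2.81 TPM, and Dars, aspartyl-tRNA synthetase, 42.6 ± 2.72 TPM. Their library values overlapped. Lars, leucyl-tRNA synthetase, followed at 36.1 ± 4.31 TPM. All 4 belong to the multisynthetase complex, and the 7 listed genes of the complex had a median control level of 36.1 TPM, against 20.6 TPM for the 13 cytosolic genes outside it. The lowest cytosolic gene after Tarsl2 was Hars, histidyl-tRNA synthetase, at 14.4 ± 1.31 TPM. At the bottom, Pars2 (2.56 ± 0.52 TPM) and Wars2 (2.11 ± 0.08 TPM), the mitochondrial prolyl and tryptophanyl enzymes, differed by less than the spread of Pars2.

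**Figure D2:**
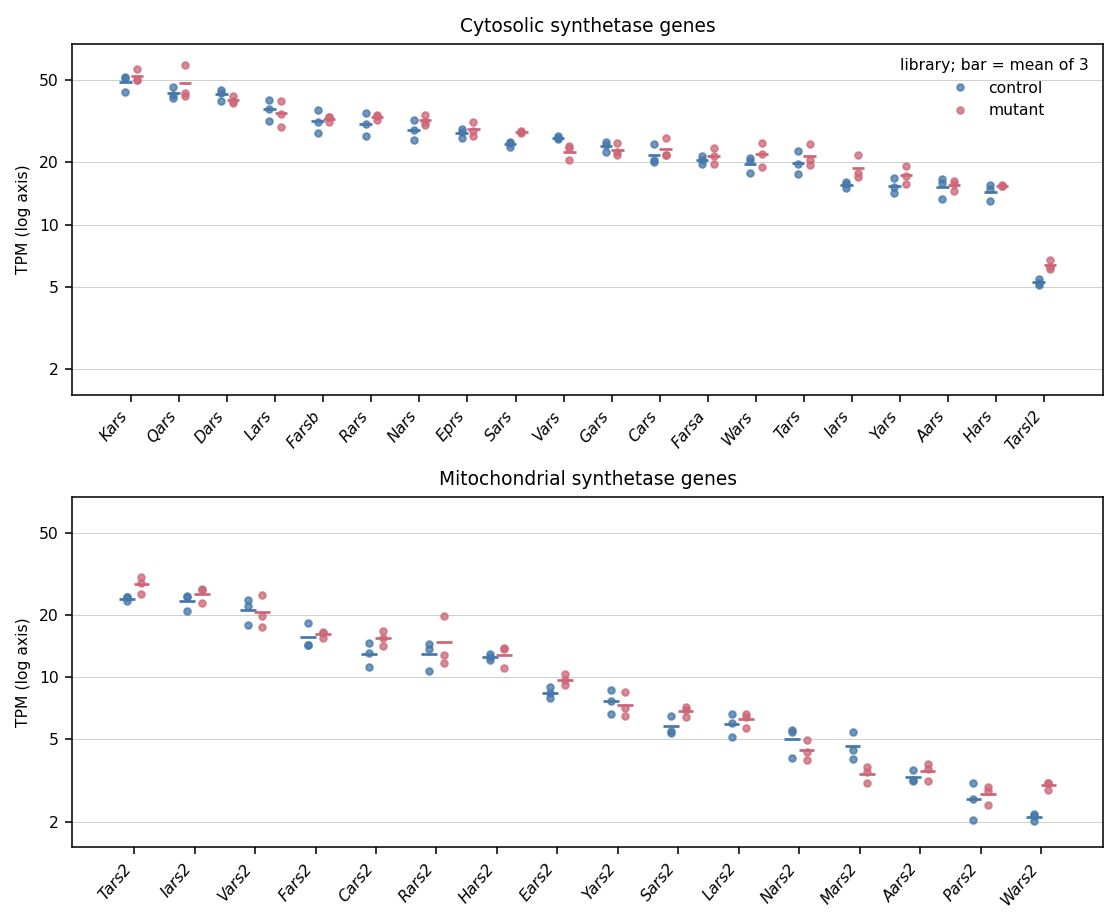
TPM on a log axis of each synthetase gene in the 3 control and the 3 mutant libraries, grouped by compartment and ordered by level. Cytosolic genes fill the range from about 5 to 50 TPM, mitochondrial genes reach down to 2.11 TPM, and points of the groups lie on top of each other for most genes.

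Differences between mutants and controls lay around the median of all genes in both compartments. Among the cytosolic genes 16 were above 0 and 4 below, with a median log2 difference of 0.10 and a range of −0.22 to 0.25. Among the mitochondrial genes 12 were above 0 and 4 below, with a median of 0.07 and a range of −0.35 to 0.36. With median-ratio scaling the medians were −0.01 and −0.02, so neither sign held. The mean log2 level of the cytosolic genes exceeded that of the mitochondrial genes by 1.37 ± 0.07 (SD, n = 3) in controls and 1.37 ± 0.03 (SD, n = 3) in mutants.

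The 7 listed genes of the multisynthetase complex had 5 above 0 and 2 below with a median log2 difference of 0.09, and the 13 other cytosolic genes had 11 above and 2 below with a median of 0.10. Class I enzymes, with a Rossmann-fold catalytic domain, had a median of 0.12 over 17 genes. Class II enzymes, built around an antiparallel sheet, had a median of 0.07 over 18 genes. Eprs, which joins a class I and a class II enzyme in 1 chain, was counted in neither.

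Of the cytosolic genes outside the complex, Tarsl2 had the smallest p. It measured 5.47, 5.21 and 5.07 TPM in the controls and 6.20, 6.73 and 6.13 TPM in the mutants. Every mutant was above every control (log2 difference 0.23, SE 0.09, limma adjusted p = 0.298). Tars, the main cytosolic threonyl-tRNA synthetase, measured 17.5, 22.8 and 19.7 TPM in the controls and 19.4, 24.7 and 20.6 TPM in the mutants, with overlapping groups. Its log2 difference was 0.11 and turned to −0.00 with median-ratio scaling. The ratio of Tars to Tarsl2 was 3.82 ± 0.58 in controls and 3.38 ± 0.27 in mutants (SD, n = 3 each), and the groups overlapped. Tarsl2 overlaps Tm2d3 (11.1 TPM) on the same strand, and how reads were divided between them is not known.

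Sars, seryl-tRNA synthetase, measured 23.8, 24.9 and 25.1 TPM in the controls and 28.5, 28.1 and 27.7 TPM in the mutants. The groups did not overlap (log2 difference 0.19, SE 0.08, limma adjusted p = 0.31). With either other scaling neither Sars nor Tarsl2 had an unadjusted p under 0.05. Vars, valyl-tRNA synthetase, was the cytosolic gene with the lowest difference. It measured 26.0, 26.8 and 26.2 TPM in the controls and 23.9, 23.4 and 20.4 TPM in the mutants. Every mutant was below every control (log2 difference −0.22, SE 0.09, limma adjusted p = 0.312). The sign of Vars was the same with both other scalings, and its difference ran from −0.34 to −0.15 over all the alternatives.

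Iars, isoleucyl-tRNA synthetase of the complex, measured 15.0, 16.0 and 15.8 TPM in the controls and 17.9, 21.7 and 17.1 TPM in the mutants. Mutant 2 was the highest, and the groups did not overlap (log2 difference 0.25, SE 0.11, limma adjusted p = 0.315). Yars, tyrosyl-tRNA synthetase, measured 16.9, 15.2 and 14.2 TPM in the controls and 17.3, 19.3 and 15.6 TPM in the mutants. Nars, asparaginyl-tRNA synthetase, measured 25.8, 32.0 and 28.6 TPM in the controls and 34.1, 30.3 and 31.5 TPM in the mutants. The groups overlapped for Yars and for Nars (log2 differences 0.16 and 0.15, limma adjusted p = 0.46 and 0.48).

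The subunits of phenylalanyl-tRNA synthetase, the only cytosolic synthetase built from different chains, had differences near 0. Farsa, the alpha chain, measured 21.4, 20.6 and 19.7 TPM in controls and 21.4, 23.6 and 19.6 TPM in mutants. Farsb, the beta chain, measured 27.8, 36.1 and 31.4 TPM in controls and 33.3, 33.2 and 31.3 TPM in mutants. Their log2 differences were 0.06 and 0.04, and both turned negative (−0.05 and −0.07) with median-ratio scaling. The ratio of Farsb to Farsa was 1.55 ± 0.23 in controls and 1.52 ± 0.10 in mutants (SD, n = 3 each).

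Neither gene that serves both compartments was called. Gars, glycyl-tRNA synthetase, whose cytosolic and mitochondrial forms start at different codons of shared mRNA, measured 22.4, 25.1 and 24.4 TPM in controls and 22.4, 24.8 and 21.8 TPM in mutants (log2 difference −0.06, limma adjusted p = 0.763). The difference of Gars was −0.17 with median-ratio scaling (limma adjusted p = 0.296) and −0.18 with protein-coding scaling (limma adjusted p = 0.283). Kars measured 43.6, 51.3 and 52.1 TPM in controls and 50.1, 56.5 and 50.3 TPM in mutants. Its log2 difference of 0.09 (limma adjusted p = 0.65) turned to −0.02 with median-ratio scaling. Wars, tryptophanyl-tRNA synthetase and a known interferon-inducible gene, measured 17.7, 21.1 and 20.2 TPM in controls and 21.9, 24.8 and 19.0 TPM in mutants. Mutant 3 lay among the controls for Wars (log2 difference 0.14, limma adjusted p = 0.549).

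Among the mitochondrial enzymes, Wars2 showed the smallest p of all 36 genes. The gene lies on chromosome 3, from 99141068 to 99239186 on the plus strand of GRCm38. It measured 2.01, 2.14 and 2.17 TPM in the controls and 3.07, 2.86 and 3.07 TPM in the mutants. The means were 2.11 ± 0.08 and 3.00 ± 0.12 TPM (SD, n = 3 each), with every mutant above every control. The log2 difference was 0.36 (SE 0.10, unadjusted p = 0.0097, limma adjusted p = 0.294). Its unadjusted p stayed under 0.05 in every alternative in which the gene was tested, and its log2 difference there ran from 0.29 to 0.49. Its adjusted p ran from 0.171 to 0.624, so it was never called. In the authors' deposited table of fold changes the log2 value of Wars2 was 0.477.

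Most of the Wars2 difference in TPM lay outside its longest coding isoform, a split that was chosen after the values were seen. The coding isoform Wars2-201, with 6 exons, measured 1.28, 1.49 and 1.28 TPM in controls and 1.39, 1.70 and 1.45 TPM in mutants, and the groups overlapped. The other Wars2 isoforms together measured 0.735, 0.642 and 0.889 TPM in controls and 1.67, 1.17 and 1.63 TPM in mutants. Their means were 0.755 ± 0.124 and 1.49 ± 0.28 TPM (SD, n = 3 each), and every mutant was above every control. Gm43024 (0.72 TPM over the 6 libraries) and Gm42717 (0.486 TPM) are annotated inside Wars2 introns on the same strand, and the depth behind the split is unknown.

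Mars2, the mitochondrial methionyl-tRNA synthetase, had the lowest log2 difference of the 36 genes. It lies on chromosome 1, from 55237177 to 55248470 on the plus strand of GRCm38, and its annotated isoform has 1 exon and so no intron. It measured 5.44, 4.02 and 4.45 TPM in the controls and 3.67, 3.07 and 3.46 TPM in the mutants. Every mutant was below every control, and control 1 was the highest library (log2 difference −0.35, SE 0.13, unadjusted p = 0.029, limma adjusted p = 0.294). The difference ran from −0.53 to −0.25 over the alternatives. Without control 1, control 3, mutant 2 or mutant 3 its unadjusted p was no longer under 0.05, and without control 1 the difference was −0.25. The authors' deposited table gave a log2 value of −0.397 for Mars2. There, 26 of the 36 genes were above 0, 7 below and 3 at 0.

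The next mitochondrial genes by p were all higher in the mutants on the TPM scale. Tars2, the threonyl enzyme, measured 24.4, 24.5 and 23.3 TPM in controls and 28.6, 30.6 and 25.3 TPM in mutants, with no overlap (log2 difference 0.22, limma adjusted p = 0.321). Ears2, the glutamyl enzyme, measured 7.92, 8.95 and 8.36 TPM in controls and 9.74, 10.3 and 9.16 TPM in mutants, again with no overlap (log2 difference 0.19, limma adjusted p = 0.338). Sars2, the seryl enzyme, measured 5.47, 6.51 and 5.36 TPM in controls and 7.17, 6.92 and 6.43 TPM in mutants. Cars2, the cysteinyl enzyme, measured 11.2, 14.7 and 13.2 TPM in controls and 15.5, 16.8 and 14.2 TPM in mutants. For Sars2 and Cars2 mutant 3 lay within the range of the controls, and the log2 differences were 0.21 and 0.24 (limma adjusted p = 0.342 and 0.347). Cars2 overlaps Naxd, and Ears2 overlaps Ubfd1, on the opposite strand, as Hars and Hars2 overlap each other. The kit keeps strand, but no source used here says whether counting used it.

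Matching each cytosolic enzyme with the mitochondrial enzyme for the same amino acid gave 16 pairs. The cytosolic gene had the higher TPM in all 6 libraries for 13 pairs. The widest gaps were between Eprs, the joint glutamyl-prolyl enzyme, and Pars2 (11.2-fold in controls) and between Wars and Wars2 (9.33-fold). The order was the other way in all 6 libraries for 2 pairs. Iars was below Iars2, the mitochondrial isoleucyl enzyme, with a ratio of 0.668 ± 0.045 in controls and 0.742 ± 0.073 in mutants (SD, n = 3 each). Tars was below Tars2, with a ratio of 0.830 ± 0.107 in controls and 0.766 ± 0.076 in mutants (SD, n = 3 each). Vars exceeded Vars2 in 5 of the 6 libraries, the exception being mutant 1 with a ratio of 0.954.

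**Figure D3:**
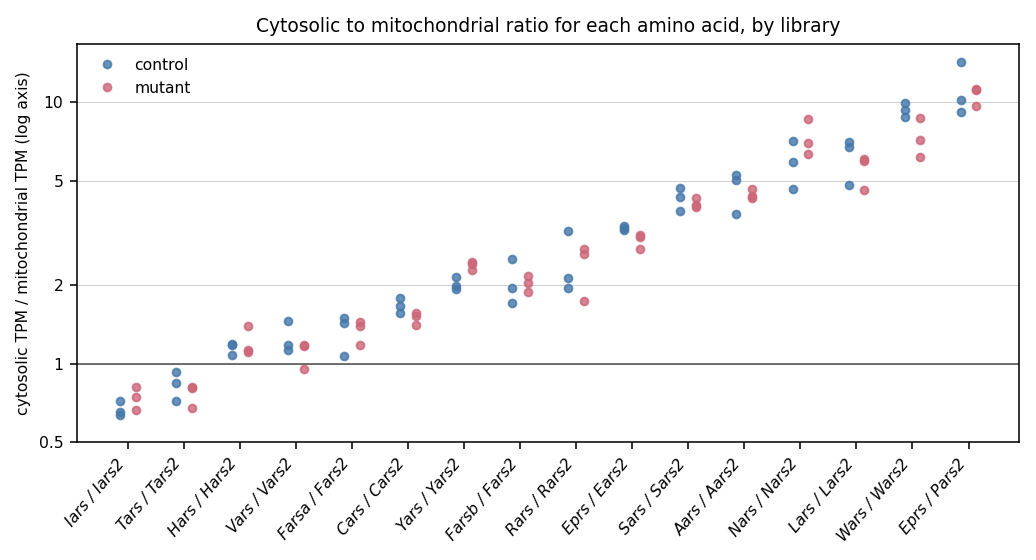
Ratio of cytosolic to mitochondrial TPM, on a log axis, for the 16 pairs in the 3 control and the 3 mutant libraries, with a line at equal levels. All 6 points of Iars/Iars2 and of Tars/Tars2 lie under the line, and the ratios of Eprs/Pars2, at the right, are around 11.2 in controls.

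A ratio within a library does not depend on how the library is scaled. For 3 pairs the ratios of the groups did not overlap, and these are a description, since 3 against 3 libraries cannot go below 0.1 in an exact permutation test. Wars over Wars2 was 8.78, 9.87 and 9.33 in controls and 7.13, 8.67 and 6.17 in mutants, lower in the mutants. Eprs over Ears2 was 3.30, 3.25 and 3.36 in controls and 2.75, 3.05 and 3.10 in mutants, also lower. Yars over Yars2, the mitochondrial tyrosyl enzyme, was 1.93, 1.97 and 2.15 in controls and 2.44, 2.28 and 2.39 in mutants, higher in the mutants. The other 13 ratios overlapped between groups. No such share was computed over other gene pairs.

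Since Rnu11 acts in splicing, isoforms were compared as well. Of 290 annotated synthetase isoforms, 143 had a mean of at least 1 TPM, and 0 were called by limma at an adjusted p under 0.05, against 0.0136% of 44197 isoforms. At an unadjusted p under 0.05 there were 14 (9.79%), 9 higher and 5 lower, against 11.2% of all isoforms, of which 8.06% were higher and 3.18% lower. The lowest adjusted p was 0.433. The groups did not overlap for 23 isoforms (16.1%), against 16.8% of all. The share of each isoform within its gene was tested for 146 isoforms of 31 genes. Here 0 were called, against 0.0112% of 35639. An unadjusted p under 0.05 was found for 9 (6.16%), 3 higher and 6 lower, against 5.81% of all, 2.77% higher and 3.04% lower.

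The isoform with the smallest p in both fits was Farsb-207, a transcript annotated as retaining an intron. It measured 2.98, 2.86 and 3.42 TPM in controls and 2.28, 1.98 and 1.86 TPM in mutants. Every mutant was lower (log2 difference −0.43, SE 0.12, limma adjusted p = 0.433). Its share of Farsb was 9.86% ± 1.66 in controls and 6.26% ± 0.51 in mutants (SD, n = 3 each). Tars2-214, also a retained-intron transcript, went the other way, at 2.92, 3.01 and 2.67 TPM in controls and 3.92, 4.02 and 3.91 TPM in mutants. Its log2 difference was 0.36 (SE 0.10, limma adjusted p = 0.433).

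Of the coding isoforms, Sars-202 measured 12.9, 14.9 and 14.1 TPM in controls and 17.5, 19.7 and 16.3 TPM in mutants. Every mutant was above every control, as for the Sars gene (log2 difference 0.33, SE 0.11, limma adjusted p = 0.433). Lars-206, a short processed transcript, measured 5.38, 3.75 and 9.08 TPM in controls and 0.542, 3.44 and 0.0 TPM in mutants. Its values spread widely within both groups (log2 difference −1.83, SE 0.55, limma adjusted p = 0.433), and the Lars gene as a whole overlapped between groups.

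The isoforms with the next smallest p in the share fit were of both kinds. Vars-203, a retained-intron transcript, made up 5.03% ± 0.30 of Vars in controls and 6.94% ± 0.57 in mutants. Vars2-204, also with a retained intron, made up 8.41% ± 2.41 of Vars2 in controls and 4.36% ± 1.19 in mutants. Fars2-208, a coding transcript of the mitochondrial phenylalanyl enzyme, made up 10.9% ± 3.79 in controls and 5.61% ± 1.16 in mutants (SD, n = 3 each). For each of the 3 the groups did not overlap, and the limma adjusted p was 0.853.

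Kars offered a compartment comparison within a gene. Alternative splicing of Kars adds an N-terminal stretch that directs the enzyme to mitochondria, and the 3 isoforms with coding lengths of 1785 or 1872 nucleotides were compared. Kars-202, with the longer coding sequence, measured 6.00, 8.0 and 6.81 TPM in controls and 10.4, 11.0 and 8.63 TPM in mutants. Every mutant was above every control (log2 difference 0.47, SE 0.14, limma adjusted p = 0.433). Its share of Kars was 14.1% ± 1.31 in controls and 19.1% ± 1.81 in mutants (SD, n = 3 each, limma adjusted p = 0.853). Kars-203 shares that coding length, and with it the longer forms made up 21.1%, 22.9% and 21.6% of Kars in controls and 25.9%, 27.2% and 22.6% in mutants, an overlap. The 1785-nucleotide form made up 73.5% ± 1.19 in controls and 69.6% ± 3.56 in mutants (SD, n = 3 each).

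**Figure D4:**
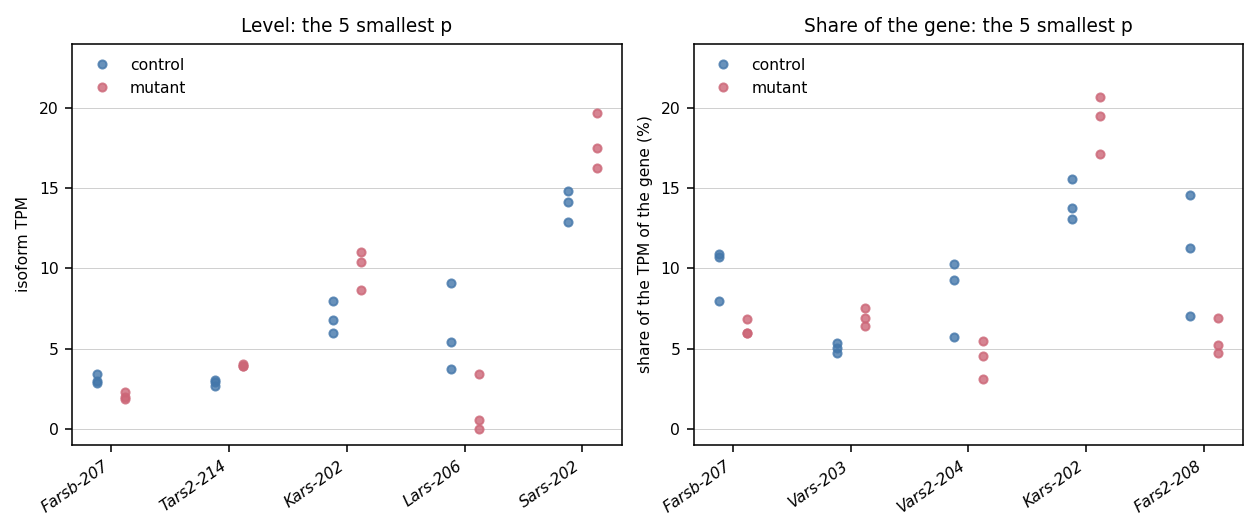
TPM of the 5 synthetase isoforms with the smallest p in the level fit (left) and percent of the gene for the 5 with the smallest p in the share fit (right), in the 3 control and the 3 mutant libraries. Kars-202 is higher and Farsb-207 lower in the mutants in both panels, and the limma adjusted p is 0.433 for the levels and 0.853 for the shares.

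Summed over the synthetases, transcripts annotated with a retained intron made up 25.3% ± 0.71 of synthetase TPM in controls and 25.4% ± 1.05 in mutants (SD, n = 3 each), an overlap. Over all nuclear protein-coding genes they made up 16.4% ± 0.03 and 16.3% ± 0.38. Transcripts annotated as targets of nonsense-mediated decay made up 4.89%, 4.65% and 4.76% of synthetase TPM in controls and 5.00%, 5.01% and 5.18% in mutants. Every mutant was above every control, while over all nuclear protein-coding genes the means were 2.89% ± 0.10 and 2.87% ± 0.03 (SD, n = 3 each). For the cytosolic genes alone the groups also did not overlap, with 5.10% in the highest control and 5.14% in the lowest mutant. For the mitochondrial genes the groups overlapped, at 3.78% to 5.11% in controls and 4.32% to 4.94% in mutants. No test was made of these shares. Transcripts of this type went both ways. Qars-231 measured 7.80, 4.28 and 6.50 TPM in controls and 9.04, 10.3 and 7.24 TPM in mutants. Farsb-204 measured 3.94, 5.25 and 3.09 TPM in controls and 2.57, 2.58 and 3.38 TPM in mutants. The groups overlapped for both. The shares were not computed without Qars-231, so the separation may rest on that transcript. Processed transcripts of the cytosolic genes made up 2.76%, 2.54% and 3.37% in controls and 1.24%, 1.78% and 1.70% in mutants, with no overlap. Without Lars-206 these shares were 1.66%, 1.84% and 1.60% in controls and 1.14%, 1.19% and 1.70% in mutants, and the groups overlapped. For the mitochondrial genes they ran from 8.66% to 9.53% in controls and from 7.18% to 9.92% in mutants, and over all nuclear protein-coding genes the means were 6.61% and 6.54%.

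Of 746 annotated introns of the synthetases, 70 from 24 genes could be read, since another transcript's sequence holds them. None of the 70 began with the minor-class 5′ splice site (ATATCCTT or GTATCCTT, on the strand of the gene, allowing 1 mismatch in its last 6 bases), and none began with AT. The other introns were not analysed here.

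Since several synthetases are known ATF4 targets, the promoter windows with the element it binds are shown. RefSeq promoter windows of 300 bases (250 before and 50 after the start, GRCm38.p6) were given for 27 of the 36 genes. They were searched on both strands for TGATGNAA, the C/EBP-ATF composite element. It was found for 5 of 13 cytosolic genes (38.5%) and 0 of 14 mitochondrial genes, against 4.51% of 27025 genes with a window. Each line gives 30 bases of a window, 5′ to 3′ on the strand of the gene, with the element or its reverse complement in capitals.
Yars, chr4:129189895-129189924, plus strand: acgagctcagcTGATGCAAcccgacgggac
Gars, chr6:55037960-55037989, plus strand: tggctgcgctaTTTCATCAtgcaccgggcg
Aars, chr8:111033840-111033869, plus strand: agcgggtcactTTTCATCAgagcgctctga
Iars, chr13:49682126-49682155, plus strand: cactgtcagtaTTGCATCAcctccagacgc
Tars, chr15:11399655-11399684, minus strand: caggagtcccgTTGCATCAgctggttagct

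The element starts at base 4 of the transcript in Yars, at base 8 in Iars and at base 10 in the Aars window shown. It lies 30 bases before the start in Gars and 15 in Tars. A match describes the letters only and does not show that a factor binds there. The 5 genes with the element had log2 differences between −0.06 for Gars and 0.25 for Iars, with a median of 0.11. The 8 cytosolic genes with a window but no match had a median of 0.08, within a range of −0.08 to 0.23.

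Of 27 genes written for the integrated stress response, 24 passed the filter on low values, 22 were higher and 2 lower in the mutants, and their median log2 difference was 0.33. None was called by limma (lowest adjusted p = 0.294), and 10 had an unadjusted p under 0.05, all higher (41.7%, against 12.1% of all genes). With median-ratio scaling 21 were higher and 3 lower, the median was 0.23 and 7 of the 24 had an unadjusted p under 0.05. Without mutant 2 the number was 6 of the 24. Over all genes the shares in either direction were 16.1% on the deposited TPM, 16.7% with median-ratio scaling and 7.3% without mutant 2. Eif4ebp1, a repressor of cap-dependent translation that ATF4 induces, measured 7.14, 7.96 and 6.53 TPM in controls and 9.06, 11.7 and 10.7 TPM in mutants (log2 difference 0.48). Atf3, a transcription factor of the same response, had a log2 difference of 0.44, and Ddit4, an inhibitor of mTORC1 signalling, 0.46. For each of these 3 genes every mutant was above every control.

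Atf4 itself measured 22.0, 20.8 and 21.7 TPM in controls and 24.6, 29.5 and 23.5 TPM in mutants (log2 difference 0.25, limma adjusted p = 0.313). The element was found in the windows of 8 of the 24 listed stress-response genes that had one (33.3%). The synthetases with the element, at a median of 0.11, lay nearer to the median of all genes than the whole stress-response list did. No median was computed for the 8 stress-response genes with the element alone, and the difference was not tested.

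**Figure D5:**
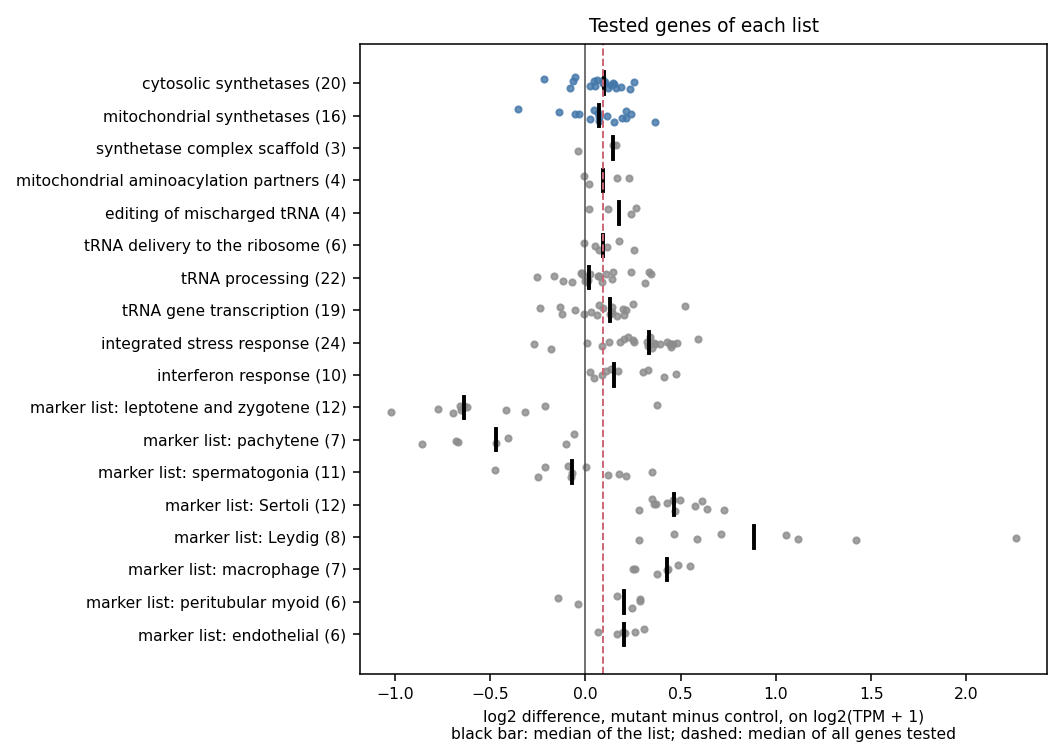
Log2 difference (mutant minus control) of every tested gene in the synthetase sets and the pathway lists, with the median of each list as a bar and a dashed line at the median of all genes tested. Synthetase sets lie around the dashed line, and the stress-response list is centred at 0.33.

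The genes around charging of tRNA also gave no call. The scaffold genes of the complex, Aimp1, Aimp2 and Eef1e1, had log2 differences of −0.04, 0.14 and 0.16, and their groups overlapped. Of the 4 mitochondrial partner genes, 3 were higher and 1 lower, led by Mtfmt, which formylates the initiator methionyl-tRNA and so acts on the product of Mars2. Mtfmt had means of 6.64 ± 0.74 and 7.93 ± 0.33 TPM (SD, n = 3 controls and 3 mutants), a log2 difference of 0.23, opposite in sign to that of Mars2. All 4 editing genes, which clear mischarged tRNAs, were higher, with a median of 0.18, and Prorsd1 measured 5.95 ± 0.60 and 7.33 ± 0.28 TPM (log2 difference 0.26, limma adjusted p = 0.298). The 6 genes that deliver tRNA to the ribosome had 5 higher and 1 lower and a median of 0.09.

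For tRNA processing 13 genes were higher and 9 lower, with a median of 0.02. Hsd17b10, a subunit of mitochondrial RNase P, had means of 14.0 ± 0.73 and 18.2 ± 2.91 TPM (SD, n = 3 controls and 3 mutants). Xpot, the tRNA export receptor, differed by 0.31 on the log2 scale, and Pop4, an RNase P protein, by −0.26. For tRNA gene transcription 14 were higher and 5 lower, with a median of 0.13. With median-ratio scaling these lists split otherwise: 2 higher and 2 lower for the mitochondrial partners, 3 and 1 for editing, 2 and 4 for delivery, 7 and 15 for processing, and 10 and 9 for tRNA gene transcription. Of the 15 interferon genes set beside Wars, 10 were tested and all 10 were higher, where 66.4% of all genes were. Their median was 0.15, and 3 had an unadjusted p under 0.05, all higher (30%, against 12.1% of all genes). The interferon genes not tested had means under 1 TPM and overlapped between groups, with mean differences in both directions. Of the 10 tested, 8 were higher and 2 lower with median-ratio scaling, and 7 and 3 with protein-coding scaling. The numbers at an unadjusted p under 0.05 were 3 and 2, in that order. Without mutant 2, 9 were higher and 1 lower, and 1 had an unadjusted p under 0.05. Over all genes, in either direction, the shares were 16.7%, 16.8% and 7.3% in these 3 fits. Tap1, a subunit of the peptide transporter for antigen presentation, had a log2 difference of 0.41, and Irf7, a transcription factor of the interferon response, 0.33 (limma adjusted p = 0.294 for both).

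No marker gene of the 8 cell-type lists was called by limma. Summed markers of leptotene and zygotene spermatocytes ran from 353 to 448.7 TPM in controls and from 245.9 to 321.4 TPM in mutants, with 11 of 12 markers lower. The 10 pachytene markers ran from 61.0 to 108 TPM and from 59.9 to 69.8 TPM, and 7 of 7 tested were lower. The 12 spermatogonial markers ran from 138 to 160 TPM and from 139 to 142 TPM. Sertoli markers ran from 1593 to 1820 TPM in controls and from 2252 to 2935 TPM in mutants, with 12 of 12 higher, and Leydig markers from 160.4 to 283.6 TPM and from 294.9 to 449.1 TPM, with 8 of 8 higher. Macrophage markers ran from 31.0 to 48.6 and from 43.2 to 62.8 TPM, myoid markers from 225 to 294 and from 265 to 313 TPM, and endothelial markers from 18.4 to 22.5 and from 20.5 to 28.6 TPM. No marker was at 0 in any library. Their part in the synthetase, stress-response and interferon values was not tested.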

How the data were processed

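Stranded libraries of rRNA-depleted total RNA came from 3 control testes and 3 Rnu11 cKO testes, per the labels' protocols. The authors deposited gene and isoform TPM per library, and a table of log2 fold changes. Per the submitters' processing notes, HISAT2 and GRCm38 were used. For the program that estimated TPM, and its annotation, the entry is "not given in the sources used here". TPM keeps no read depth, so no count model was used.

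Genes whose mean reached 1 TPM were tested with limma 3.58.1 (R 4.3.3), moderated with trend, on log2(TPM + 1). Isoform shares of genes of at least 5 TPM, at a mean share of 5% to 95%, were tested as log2 ratios to the other isoforms with 0.1 added. Isoform types and positions came from GENCODE M21, which held 53461 of 55353 symbols and 141524 of 142647 isoforms. The script was tested on simulated data with planted changes larger than any synthetase gene difference seen here. That test does not show whether smaller changes would be found. The threshold was 0.05 after Benjamini-Hochberg adjustment over everything tested. Tables were handled with pandas 2.3.3 in Python 3.11.15.

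The members and lists were chosen with earlier results of these data known. Genes were named if called, as the 6 cytosolic and 6 mitochondrial genes of smallest p, as Tars, Tarsl2, Farsa, Farsb, Gars, Kars and Wars, as up to 3 genes per list by p, and as the 5 isoforms of smallest p in each isoform fit. Atf4, Dars, the pair ratios and the split of Wars2 isoforms were added after values were seen. Some items that the rule names are not reported here. Alternatives were another pseudocount, 2 other filters, 2 other scalings, a fit without trend, a block for replicate number, leaving out 1 library at a time, and other compartments for Tarsl2, Gars and Kars.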

Additional observations from a re-analysis of the deposited data

How the results depend on the processing

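No synthetase gene, isoform or isoform share was called by limma in any alternative, and 349 checks of single genes and isoforms kept their sign and their side of the threshold. The 10 reversals, whose cause was not tested, were Farsa (−0.0483 with median-ratio scaling, −0.0596 with protein-coding scaling, and leaving out a library −0.00451 to 0.123), Farsb (−0.0671, −0.0782, and −0.0458 to 0.136 leaving out a library), Kars (−0.0174, −0.0274) and Tars (−0.00291, −0.0127). Genes at an unadjusted p under 0.05 numbered 7 with no filter (19.4%, against 10.1% of all genes). With a filter of 5 TPM, where 31 of the 36 were tested, the number was 1 (3.23%, against 20.1% of all genes). The side of the synthetase share relative to all genes thus changed with the filter. When a library was left out there were from 1 to 4: 1 without control 1, control 3 or mutant 2, and 2 without mutant 1. Over all genes the share in these fits ran from 7.31% to 23.8%. The cytosolic median was −0.0139 with median-ratio and −0.0241 with protein-coding scaling, and the mitochondrial median −0.0157 and −0.0267. Leaving out a library gave cytosolic medians from 0.0199 to 0.138, mitochondrial medians from 0.0337 to 0.156, and a cytosolic minus mitochondrial difference from −0.0646 to 0.0944, so no order of the compartments held. Replicate numbers showed no sign of pairing the libraries: deviations of libraries with the same number correlated at −0.07, 0.04 and 0.08. Libraries with different numbers correlated at −0.16 to 0.12. With 3 libraries per group these values cannot exclude a pairing. With a replicate block 2 genes, Wars2 and Mars2, had an unadjusted p under 0.05, and 0 were called. TPM gives no depth, so the limit that read number sets on the low genes is unknown.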
